A study of Mus musculus with 20 samples.

Results

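Cells sorted as the side population (SP) and as the main population (MP) were compared in skeletal muscle and in bone marrow, and for each probe set it was asked whether the SP against MP difference was the same in both tissues. All 20 samples of the study entered, 5 of each population from each tissue. All came from adult mice of the inbred strain C57BL/10SnJ, with no treatment or genotype named, and total RNA of each was measured on an Affymetrix expression array. Neither the sort gates nor the number of animals per sample are stated. The labels do not tie the 5 samples of a group to different animals or sorts. The p-values therefore reflect only how much these samples vary, and that variation may be technical. RNA was extracted from mixed cells, so fewer cells of a type and less RNA per cell cannot be told apart.

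Side population cells are known as cells that keep little of a DNA-binding dye, since ABC transporters in the membrane carry it out. In bone marrow the fraction is known for its content of blood stem cells, and the main population around it is largely made of maturing granulocytes, red cell precursors and B cells. In muscle the fraction is known to be mixed and to hold many endothelial cells, and the main population holds satellite cells (the stem cells of muscle fibres), fibroblasts and macrophages.

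The difference between tissues was taken as the muscle SP minus MP change less the bone marrow SP minus MP change, on the log2 scale, after the arrays had been given a common distribution. A positive value means that SP relative to MP was higher in muscle than in bone marrow. A floor of 105 signal (log2 6.71) was set under dim values. Values are normalized signals, and a change is called at an adjusted p under 0.05 by limma with Benjamini-Hochberg adjustment over 10310 probe sets. A gene counted as expressed in both tissues if all 5 arrays of at least 1 population of each tissue lay above the floor, which held for 8028 probe sets and 5986 genes.

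The tissue labels were set against marker genes. The summed signal of 8 endothelial markers was 127593 to 146324 in muscle SP and 85899 to 109993 in muscle MP, against 4343 to 8561 in bone marrow SP and 2250 to 2913 in bone marrow MP. Of the satellite cell markers on the array, all 4 were at the floor on every bone marrow SP array, and their sum was 419 to 695 in muscle SP against 3907 to 6535 in muscle MP. Blood cell content differed among the muscle SP samples. The summed signal of 5 neutrophil markers was 14858, 46029, 13933, 1484 and 947 on muscle SP 1 to 5, against 1086 to 7790 in muscle MP, so that 3 SP arrays lay above all MP arrays. Ptprc, the pan-leukocyte surface protein CD45, was 1176, 1658, 3236, 191 and 385 on the same arrays and 403 to 582 in muscle MP. RNA integrity was followed by GAPDH, as the log2 of its 3' signal over its 5' signal. This GAPDH ratio was higher in SP than in MP by 1.16 in muscle and by 1.05 in bone marrow, a difference between tissues of 0.11. Where leaving out these 3 muscle SP arrays ended or made the call of a named gene's difference, the value without them is given. It is also given where the log2 difference changed by a factor of over 1.5. Other named genes moved less, though some changed class.

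The SP against MP change differed between tissues at 1912 of 10310 probe sets, which was 18.5% of those tested. SP relative to MP was higher in muscle at 896 (8.69%) and higher in bone marrow at 1016 (9.85%). Counted as genes by the brightest probe set, 1463 of 7295 differed (20.1%), 638 (8.75%) and 825 (11.3%) in the respective directions. The split moved with the scaling, since 46.9% of the called probe sets were higher in muscle here, 30.4% on the values as deposited and 62.2% after scaling arrays to a common median. The median difference over all probe sets was 0.02, -0.23 and 0.13 under these scalings. Among probe sets expressed in both tissues 1529 differed (19%).

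Within each tissue, SP was higher than MP in muscle at 526 probe sets (5.1%) and lower at 685 (6.64%), and in bone marrow at 1583 (15.4%) and 1530 (14.8%). The largest classes of difference were of genes with a called change in bone marrow alone. A change was counted as present in a single tissue if it was called there and, in the other tissue, was not called and was under 0.5 on the log2 scale. Of the 8028 probe sets expressed in both tissues, 470 (5.85%) were higher and 381 (4.75%) lower in SP in bone marrow only. In muscle only, 66 (0.822%) were higher and 111 (1.38%) lower. Opposite changes, called in both tissues with different signs, were found at 52 probe sets (0.648%) that were higher in muscle SP and lower in bone marrow SP, and at 59 (0.735%) the other way. These stand for 38 and 51 genes by their brightest probe sets. A further 24 (0.299%) rose and 28 (0.349%) fell in SP of both tissues by different amounts, and 338 (4.21%) were in none of these classes.

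**Figure D1:**
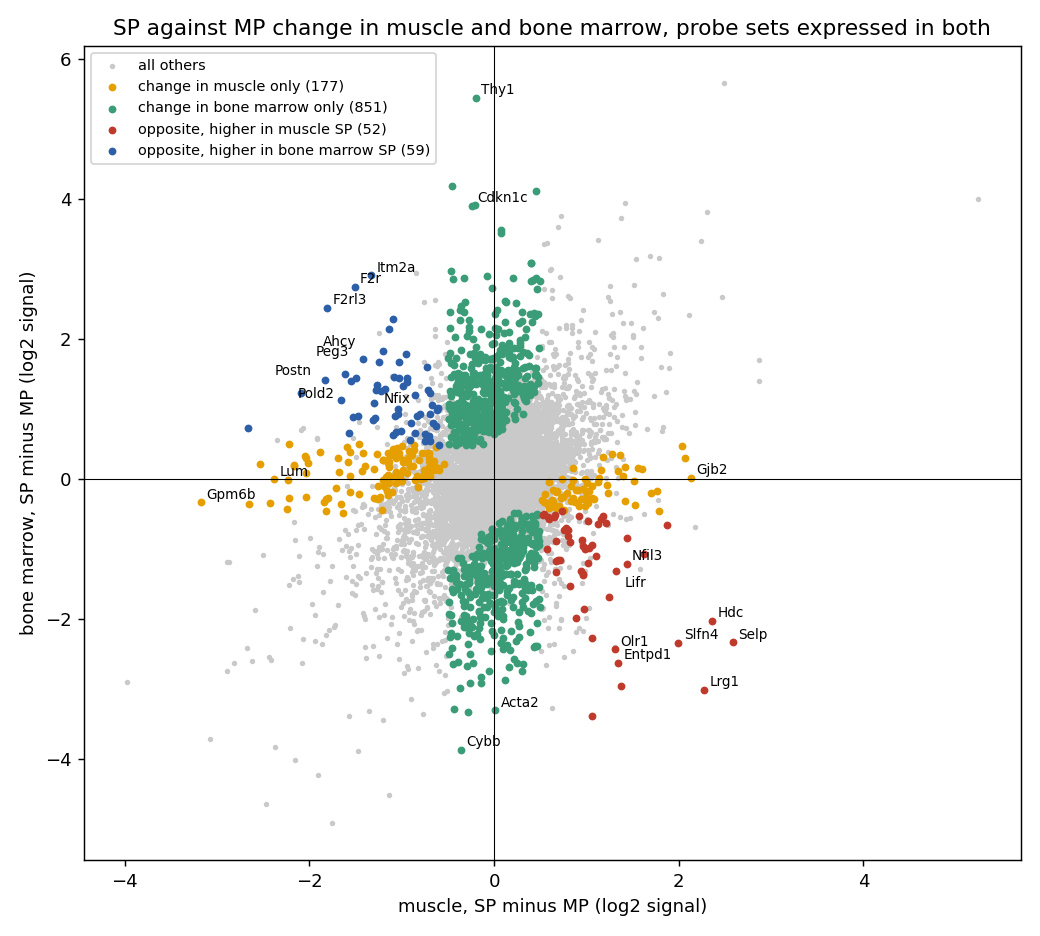
SP minus MP change in muscle (x axis) against that in bone marrow (y axis), both in log2 signal, for the 8028 probe sets expressed in both tissues, each point a probe set coloured by class. The opposite changes fill the lower right (52) and upper left (59) corners, and the 851 bone marrow only points form a band along the vertical axis.

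The bone marrow changes were wider than those of muscle, with an SD over these probe sets of 0.832 against 0.549 on the log2 scale. Over the same 8028 probe sets the changes correlated with a Pearson r of 0.28 and a Spearman rho of 0.244, as a description across probe sets that are not independent replicates. The muscle and bone marrow changes share no arrays. Of 504 probe sets called in both tissues, 393 changed the same way and 111 (22%) changed in opposite directions. The difference between tissues was called at 52 of the 393 (13.2%). Its call at all 111 follows from their selection, since called changes of opposite sign add up in the difference.

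Ranked by the smaller of their changes in the 2 tissues, genes higher in muscle SP and lower in bone marrow SP were led by Selp, Lrg1, Hdc and Slfn4. These encode an adhesion receptor, a secreted glycoprotein, an enzyme of histamine synthesis and a Schlafen protein of myeloid cells. By the same ranking, genes with the reverse pattern were led by the thrombin receptor genes F2rl3 and F2r and by Peg3 and Ahcy. The promoters of 6 of these genes are printed because they stand at the head of the opposite changes, as RefSeq gives them for the mouse assembly GRCm38.p6. Each runs from 250 bases before to 50 bases after the start site. Capitals mark matches, on either strand, to 7 short motifs: AGATAA (bound by GATA factors), GGAAGT (bound by ETS factors), TGTGGT (bound by RUNX factors), CAGCTG (an E-box), TGANTCA (bound by AP-1), GGGCGG (bound by Sp and KLF factors) and CCAAT. The first 3 are of genes higher in muscle SP, the last 3 of genes higher in bone marrow SP.
Selp: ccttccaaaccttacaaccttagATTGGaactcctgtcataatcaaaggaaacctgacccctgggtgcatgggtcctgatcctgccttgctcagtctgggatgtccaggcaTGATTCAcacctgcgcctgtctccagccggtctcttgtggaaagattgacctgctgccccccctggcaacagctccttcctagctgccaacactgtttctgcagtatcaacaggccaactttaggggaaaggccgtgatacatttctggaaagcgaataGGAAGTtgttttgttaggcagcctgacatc
Lrg1: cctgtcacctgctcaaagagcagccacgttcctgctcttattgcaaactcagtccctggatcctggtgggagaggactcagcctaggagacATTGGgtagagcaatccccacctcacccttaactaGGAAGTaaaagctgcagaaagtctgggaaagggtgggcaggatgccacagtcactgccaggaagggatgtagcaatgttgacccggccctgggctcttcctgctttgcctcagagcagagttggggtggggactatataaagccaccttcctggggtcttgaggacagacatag
Hdc: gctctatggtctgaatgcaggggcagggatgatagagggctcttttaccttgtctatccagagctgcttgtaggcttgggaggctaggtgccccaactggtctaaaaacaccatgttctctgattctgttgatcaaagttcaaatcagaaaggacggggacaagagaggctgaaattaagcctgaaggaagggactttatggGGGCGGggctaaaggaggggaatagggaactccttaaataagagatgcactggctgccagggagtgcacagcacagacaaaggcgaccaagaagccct
F2rl3: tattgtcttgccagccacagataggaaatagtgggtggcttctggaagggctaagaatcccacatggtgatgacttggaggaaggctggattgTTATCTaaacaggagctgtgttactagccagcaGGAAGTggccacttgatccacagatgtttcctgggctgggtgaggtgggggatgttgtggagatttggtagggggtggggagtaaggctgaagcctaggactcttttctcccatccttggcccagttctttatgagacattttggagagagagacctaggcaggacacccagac
F2r: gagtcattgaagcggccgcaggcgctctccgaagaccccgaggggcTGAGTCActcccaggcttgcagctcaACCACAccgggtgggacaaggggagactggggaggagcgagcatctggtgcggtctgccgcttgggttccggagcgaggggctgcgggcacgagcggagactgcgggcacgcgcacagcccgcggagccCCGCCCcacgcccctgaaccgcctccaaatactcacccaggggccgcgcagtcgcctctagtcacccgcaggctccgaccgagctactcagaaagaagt
Peg3: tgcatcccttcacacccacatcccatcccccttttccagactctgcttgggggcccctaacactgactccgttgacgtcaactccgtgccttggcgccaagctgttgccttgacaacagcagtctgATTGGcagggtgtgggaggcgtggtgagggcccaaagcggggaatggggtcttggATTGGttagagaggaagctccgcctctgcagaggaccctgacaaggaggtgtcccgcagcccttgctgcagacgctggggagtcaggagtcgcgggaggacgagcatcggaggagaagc

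Their positions are Selp chr1:164115014-164115313 (plus strand), Lrg1 chr17:56121897-56122196 (minus strand), Hdc chr2:126618629-126618928 (minus strand), F2rl3 chr8:72761409-72761708 (plus strand), F2r chr13:95618417-95618716 (minus strand) and Peg3 chr7:6730370-6730669 (minus strand). Promoters were found for 32 of the 38 and 40 of the 51 genes with opposite changes. GGAAGT was present in 14 of 32 (43.8%) promoters of genes higher in muscle SP and in 7 of 40 (17.5%) of those higher in bone marrow SP. It was present in 29.3% of 4818 promoters of genes expressed in both tissues and in 24.1% of all 27025. GGGCGG was present in 56.2% and 65% of the respective sets, against 63.7% of promoters of genes expressed in both tissues. The GATA motif was present in 6.25% and 12.5% of the respective sets, against 6.08% of promoters of genes expressed in both tissues. The RUNX motif was present in 21.9% and 10% (12.6%), the E-box in 12.5% and 10% (13.7%), the AP-1 motif in 9.38% and 15% (5.54%) and CCAAT in 34.4% and 37.5% (38.6%), with that same background in brackets. A match is a description of these letters and not a binding site.

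Selp encodes P-selectin, by which activated endothelium and platelets hold leukocytes. Its signal was 6788, 6848, 4429, 13969 and 15410 in muscle SP and 1503, 1386, 1509, 1437 and 1269 in muscle MP. Bone marrow levels were 105, 183, 437, 105 and 105 in SP and 534, 1190, 1200, 893 and 447 in MP. SP and MP arrays overlapped in neither tissue, every muscle SP array lay above and every bone marrow SP array below its MP arrays, and 3 of the bone marrow SP arrays were at the floor. The change was 2.58 ± 0.39 (log2, SE, n = 5 arrays per group) in muscle and -2.34 ± 0.39 in bone marrow, a difference of 4.92 ± 0.55 (adjusted p = 1.7e-06).

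Hdc encodes histidine decarboxylase, the enzyme that makes histamine. Its signal was 2515, 1715, 2178, 2336 and 1691 in muscle SP against 574, 409, 384, 376 and 307 in muscle MP. In bone marrow SP it was 5588, 3403, 5037, 4338 and 2591, against 15570, 16273, 16538, 16665 and 17651 in MP. The groups did not overlap in either tissue, and bone marrow MP held the highest level of all. The difference between tissues was 4.39 ± 0.29 (2.36 in muscle, -2.03 in bone marrow, adjusted p = 1.7e-09).

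Lrg1, a secreted leucine-rich glycoprotein of neutrophils and endothelium, was 789, 3087, 1890, 4341 and 3367 in muscle SP and 366, 569, 526, 527 and 433 in muscle MP. In bone marrow SP it was 1392, 471, 904, 332 and 105, against 3149, 3324, 3297, 5593 and 3725 in MP. Neither pair of groups overlapped, and muscle SP 1 was the lowest of its group. The difference of 5.30 ± 0.71 (2.28 against -3.02, adjusted p = 1.7e-05) was the widest among the opposite genes.

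Slfn4 was 836, 2142, 794, 2779 and 3375 in muscle SP and 402, 371, 576, 321 and 478 in muscle MP. It was 13799, 6541, 13043, 11239 and 2211 in bone marrow SP and 39813, 31291, 53470, 45097 and 32821 in MP. Both bone marrow groups lay above nearly all muscle arrays, and SP and MP were apart in each tissue. The changes were 2.00 ± 0.44 and -2.34 ± 0.44.

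Of the other genes with this pattern, 5 are described next, each without overlap in either tissue. Entpd1 (CD39, an enzyme that breaks down extracellular ATP) changed by 1.34 in muscle and -2.63 in bone marrow. Bmx, a Tec family tyrosine kinase of endothelial and myeloid cells, changed by 1.06 and -3.40, a difference of 4.45 ± 0.37 (adjusted p = 3.2e-08). Nfil3, a leucine zipper transcription factor, changed by 1.43 and -1.21, and Lifr, the receptor of leukemia inhibitory factor, by 1.32 and -1.31. Lifr is far brighter in muscle (3125 to 16977) than in bone marrow (105 to 521), and its 3 other probe sets gave differences of 1.63, 0.79 and 1.24. Olr1, a scavenger receptor for oxidised lipoprotein, was at the floor on all 5 muscle MP arrays and at 202 to 322 in muscle SP, so its muscle change is at least 1.31. In bone marrow it fell from 2311 to 2916 in MP to 154 to 1142 in SP.

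The 8 genes ranked highest by the smaller of their changes kept both calls without the 3 muscle SP arrays of high neutrophil signal, and the muscle change was larger in 7 of the 8 without them (3.37 for Selp, 3.00 for Lrg1, 2.86 for Slfn4). Hdc was 2.31 without these arrays. With the GAPDH ratio as a covariate all 8 also kept both calls.

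**Figure D2:**
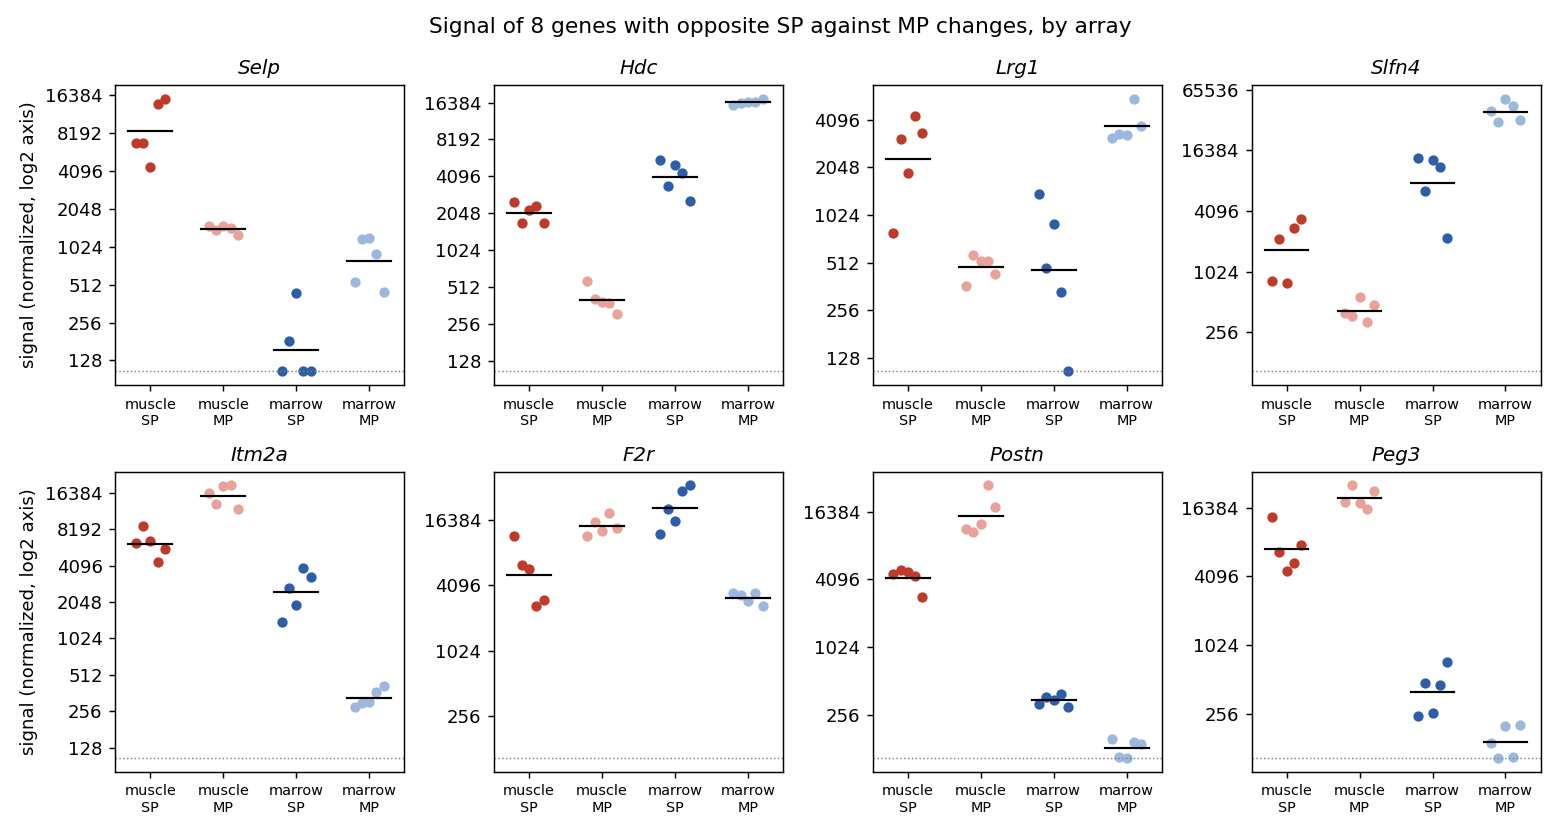
Normalized signal (log2 axis) of 8 genes with opposite changes, by group, with a point per array, a bar at the mean of log2 signal (n = 5) and a dotted line at the floor of 105. In the upper row SP lies above MP in muscle and below it in bone marrow, and in the lower row the order is turned, with overlap of a single array pair for F2r in muscle.

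F2r and F2rl3 encode protease-activated receptors, through which thrombin acts on platelets, endothelium and other cells. F2r was 11735, 6315, 5772, 2668 and 3006 in muscle SP and 11720, 15817, 13043, 19248 and 13885 in muscle MP. It was 12214, 20850, 16106, 30248 and 34335 in bone marrow SP and 3454, 3341, 2958, 3474 and 2633 in MP. Bone marrow SP lay clear of MP, while muscle SP 1 reached the lowest MP array. The change was -1.51 ± 0.33 in muscle and 2.75 ± 0.33 in bone marrow, a difference of -4.26 ± 0.46 (adjusted p = 1.3e-06). The 2 other, dimmer F2r probe sets gave differences of 0.14 and -0.05, so the result rests on the brightest.

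F2rl3 was 519, 869, 1178, 105 and 130 in muscle SP and 1175, 1557, 1946, 875 and 1237 in muscle MP. It was 1724, 3082, 1453, 1320 and 1370 in bone marrow SP and 394, 495, 242, 105 and 580 in MP. The muscle groups overlapped and the bone marrow groups did not. The muscle change of -1.81 ± 0.55 (adjusted p = 0.035) lost its call without any of muscle SP 4 (-1.35, adjusted p = 0.105), muscle SP 5 (-1.43, 0.1002), muscle MP 1 (0.0548), muscle MP 2 (0.0734), muscle MP 3 (0.0883) and muscle MP 5 (0.0569). The bone marrow change was 2.45 ± 0.55, and the difference between tissues of -4.26 ± 0.78 (adjusted p = 5.0e-04) was called under all 33 alternatives.

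Itm2a, a membrane protein of developing cartilage, muscle and T cells, was 6309, 8713, 6571, 4388 and 5644 in muscle SP and 16246, 13123, 18624, 18845 and 11991 in muscle MP. Bone marrow levels were 1390, 2677, 1943, 3884 and 3322 in SP and 278, 301, 306, 368 and 410 in MP. The groups were apart in both tissues, and the difference was -4.24 ± 0.35 (-1.33 against 2.91, adjusted p = 3.0e-08).

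Postn, the matrix protein periostin, was 4604, 4961, 4800, 4426 and 2831 in muscle SP against 11408, 10752, 12747, 28137 and 18029 in MP. In bone marrow it was dim, at 321, 367, 344, 392 and 297 in SP and 154, 108, 105, 145 and 139 in MP, yet the groups did not overlap. Its changes were -1.83 ± 0.23 and 1.41 ± 0.23. Peg3, an imprinted zinc finger gene, was likewise bright in muscle (4586 to 13656 in SP, 15898 to 25713 in MP) and dim in bone marrow (243 to 724 in SP, 105 to 206 in MP), with changes of -1.50 and 1.45 and with its 2 other probe sets at differences of -1.35 and -1.83.

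Ahcy, which clears the by-product of methylation reactions, changed by -1.42 and 1.72, and its 2 other probe sets gave differences of -1.71 and -1.31. Nfix, a nuclear factor I transcription factor, changed by -1.28 and 1.27, with its other probe set at a difference of -0.30. Pold2, a subunit of DNA polymerase delta measured by a probe set that can cross-hybridise, changed by -1.55 and 1.39 with overlap in both tissues. Its muscle change was not called when muscle SP 5 was left out (adjusted p = 0.0594), its bone marrow call without bone marrow SP 4 (0.0509) or bone marrow MP 3 (0.0533), and the latter also with the GAPDH ratio as a covariate (0.119). Without the 3 muscle SP arrays of high neutrophil signal all 8 leading genes of this direction kept both calls, and the muscle change was larger in 7 of them (-3.49 for F2rl3, -2.36 for F2r).

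Over the 38 genes higher in muscle SP, muscle changes ran from 0.53 to 2.58 (median 1.02) and bone marrow changes from -3.40 to -0.45 (median -1.09). Over the 51 genes of the other direction they ran from -2.66 to -0.60 (median -1.04) and from 0.49 to 2.91 (median 1.08). These ranges follow from the choice of genes and carry no test. Of the 38 genes, 27 were highest in bone marrow MP and 11 in muscle SP, and 26 were lowest in muscle MP. Of the 51 genes, 34 were highest in muscle MP and 17 in bone marrow SP, and 36 were lowest in bone marrow MP. The mean of both changes was under 0.5 in size in 32 of the 38 and 46 of the 51. This too follows largely from the choice, since changes of opposite sign offset each other, and the share over all genes was not taken. SP and MP arrays were apart in muscle in 26 of the 38 and 31 of the 51, and in bone marrow in 26 and 32. They were apart in both tissues at once in 17 of the 38 and 17 of the 51. These genes were chosen by calls in both tissues, so such counts follow in large part from the choice. Over all tested probe sets the groups were apart in muscle at 10.1% and in bone marrow at 20.1%, each tissue taken alone.

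Where a gene with an opposite change had further probe sets, 13 of 14 had the same sign of difference for genes higher in muscle SP (4 of them called), and 9 of 12 for the other direction (6 of them called). None of these other probe sets was called with the opposite sign.

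Of the changes in muscle only, Ankrd33b and Gjb2 led the rises and Gpm6b and Ptprd the falls by the size of the difference between tissues. Gjb2, the gap junction protein connexin, was 898, 1350, 1906, 1329 and 2954 in muscle SP and 404, 462, 340, 405 and 218 in MP. Bone marrow levels were 147, 361, 313, 274 and 329 in SP and 365, 321, 202, 184 and 325 in MP. The muscle groups were apart and the bone marrow groups overlapped. The muscle change was 2.13 ± 0.30, and that of bone marrow was 0.02 with a 95% interval of -0.61 to 0.65.

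Ankrd33b rose by 1.79 in muscle, with a bone marrow change of -0.46 that was called when bone marrow SP 4 was left out (-0.63, adjusted p = 0.0422). Diaph2, an actin-assembling formin, rose by 1.53 against -0.37 in bone marrow. Sele, the endothelial adhesion receptor E-selectin, rose by 2.06 with overlap in muscle, against 0.31, but the difference between tissues (1.76 ± 0.54, adjusted p = 0.025) lost its call without muscle SP 4 (0.0510), muscle MP 2 (0.0515) or muscle MP 5 (0.0518). It was 2.82 without the 3 muscle SP arrays of high neutrophil signal (adjusted p = 0.00018), and was not called without further normalization (1.41, adjusted p = 0.0646) or without the filter on dim probe sets. Il7r, a cytokine receptor chain of lymphocytes, rose by 1.76 against -0.17. Its signal was 571, 665, 1441, 314 and 269 in muscle SP, highest on the 3 arrays with high neutrophil markers, and the difference of 1.93 was 1.04 and not called without them (adjusted p = 0.19). It was also not called without the 3 arrays of highest GAPDH ratio or with a floor at the 40th percentile.

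Among falls in muscle only, Lum, the matrix proteoglycan lumican, was 6802, 4950, 4131, 2041 and 2961 in muscle SP and 21879, 18264, 18993, 26538 and 16064 in MP. In bone marrow it was 220, 209, 375, 268 and 105 in SP and 215, 211, 194, 263 and 215 in MP. The muscle groups were apart by a wide margin and the dim bone marrow groups overlapped, with changes of -2.38 ± 0.30 and -0.01 ± 0.30. Gpm6b, a membrane glycoprotein of neurons and glia, fell by 3.17 ± 0.46 in muscle, on bone marrow signals of 105 to 209. Ptprd, a receptor tyrosine phosphatase, fell by 2.54 and Gal, the neuropeptide galanin, by 2.05 in muscle, with bone marrow changes of 0.22 and 0.33. Ptprd was dim in bone marrow, at 135 to 330 in SP and 105 to 327 in MP, so a fall there could hardly be seen. Cd83, a surface protein of activated dendritic cells and lymphocytes, fell by 2.17 against 0.20 in bone marrow, where it was at 505 to 1355. Its other probe set gave a difference of -0.22. Clcn5, an endosomal chloride transporter, fell by 2.22 in muscle. Its bone marrow change of 0.50 was called without muscle SP 1 (adjusted p = 0.0322) and without the 3 muscle SP arrays of high neutrophil signal (0.0370). The other probe set of Clcn5 gave a difference of -0.19.

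**Figure D3:**
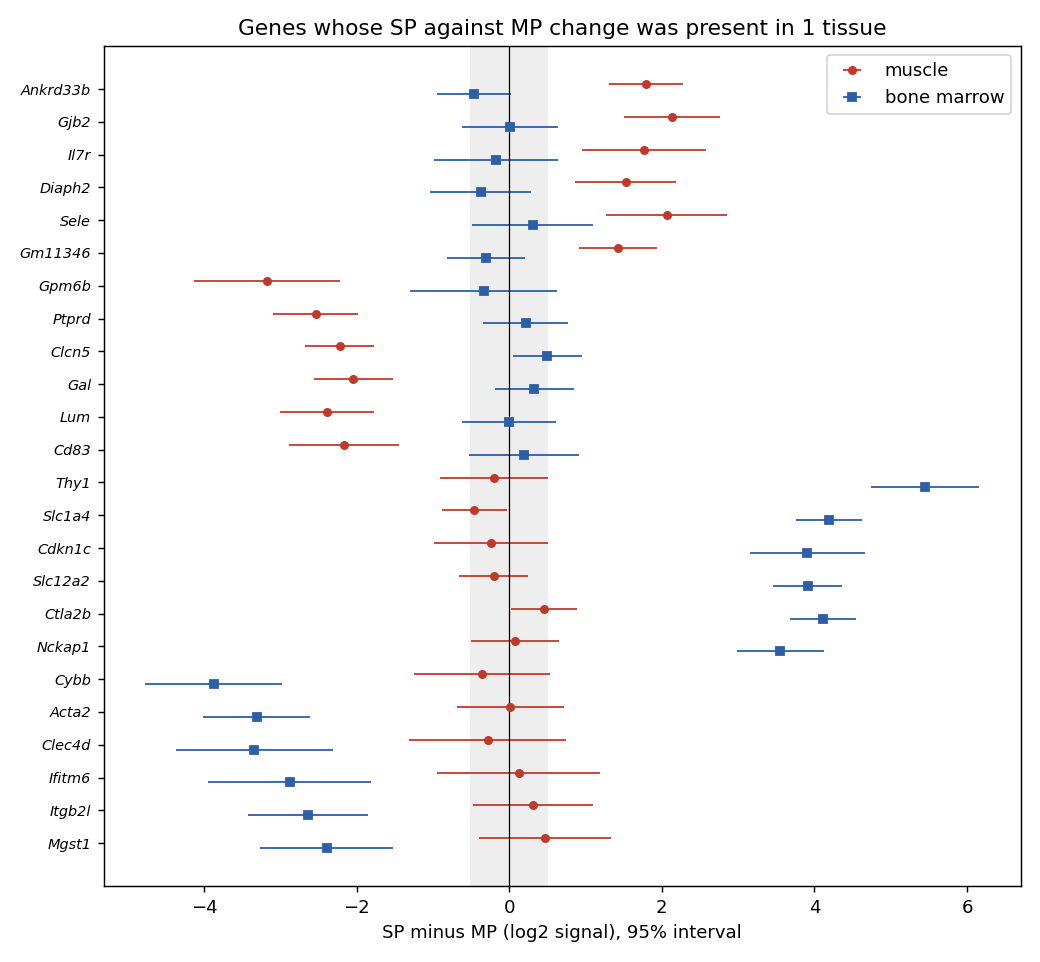
SP minus MP change (log2 signal) in muscle (circles) and bone marrow (squares) with 95% intervals from the fit, for 24 genes whose change was present in a single tissue. The shaded band is 0.5 on either side of 0, and the change outside it reaches -3.17 for Gpm6b in muscle and 5.45 for Thy1 in bone marrow.

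The largest changes in bone marrow only, 5.45 and -3.87, exceeded those in muscle only, 2.13 and -3.17. These extremes come from more genes, 383 rises and 294 falls against 50 and 101. The class medians were closer, at 1.19 and -1.29 in bone marrow only against 0.98 and -1.15 in muscle only. Thy1, a surface protein of T cells, fibroblasts and some blood stem cells, was 5913, 4637, 11200, 3492 and 1849 in bone marrow SP and at the floor on all 5 MP arrays. In muscle it was 525, 858, 1545, 1014 and 882 in SP and 1360, 789, 1010, 1438 and 801 in MP. The muscle groups overlapped, and the bone marrow change was at least 5.45 against -0.20 in muscle.

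Cdkn1c, an inhibitor of cyclin-dependent kinases, was 2148, 6178, 3977, 8645 and 7142 in bone marrow SP and 204, 341, 504, 569 and 216 in MP. Both muscle groups were brighter still, at 13481 to 41544 in SP and 25071 to 39356 in MP, and overlapped. The bone marrow change was 3.91 ± 0.36 and that of muscle -0.24, with a 95% interval of -0.99 to 0.51. A like pattern of a high level in both muscle groups held for Slc12a2, an ion cotransporter (8784 to 23296 in muscle SP, 13481 to 15341 in muscle MP), and Nckap1, a part of an actin-regulating complex (11928 to 18224 and 11828 to 17751). Slc12a2 rose by 3.91 ± 0.22 and Nckap1 by 3.55 ± 0.28 in bone marrow SP. Slc1a4, an amino acid transporter, rose by 4.19 ± 0.21 and Ctla2b by 4.11 ± 0.21, with muscle changes of -0.46 and 0.45.

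Falls in bone marrow SP only were led by Cybb, a chain of the phagocyte oxidase, at 1481, 264, 509, 200 and 105 in SP and 4608, 5971, 3373, 5616 and 5382 in MP. It was near the floor in muscle, at 105 to 153 in SP and 120 to 184 in MP. Acta2, smooth muscle actin, fell by 3.31 ± 0.34 in bone marrow SP (105 to 395 against 1039 to 2351), while muscle SP and MP overlapped at 12500 to 26146 and 10937 to 26996. Clec4d, Ifitm6, Itgb2l and Mgst1, the first 3 known from myeloid cells, changed by -3.34, -2.88, -2.64 and -2.39. Muscle signals were low for Itgb2l (110 to 273 in SP, 105 to 203 in MP) and Ifitm6 (107 to 659 and 177 to 311). Without the 3 muscle SP arrays of high neutrophil signal the difference was not called for Clec4d (1.95 in place of 3.06, adjusted p = 0.075) or Ifitm6 (2.00 in place of 3.00, adjusted p = 0.081). Without them Mgst1 had a called rise of 1.43 in muscle (adjusted p = 0.047), which made its changes opposite.

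Of the 383 genes higher in bone marrow SP only, 219 were highest in bone marrow SP, 52 in muscle SP and 112 in muscle MP. Of the 294 that were lower, 245 were highest in bone marrow MP. Of the 101 genes lower in muscle SP only, 68 were highest in muscle MP. Of the 24 named genes with a change in a single tissue, 12 of each tissue, 8 and 8 stayed in their class with the GAPDH ratio as a covariate, and 10 and 8 did so without the 3 muscle SP arrays of high neutrophil signal.

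The genes named here for a change in the same direction by unequal amounts moved further in bone marrow. Ifng, the cytokine interferon gamma, was 471, 1103, 947, 337 and 431 in muscle SP and at the floor on all muscle MP arrays, a rise of at least 2.49. In bone marrow it was 5572, 4156, 12171, 11461 and 13601 in SP and 115, 365, 212, 141 and 105 in MP, a rise of 5.66 ± 0.37. Every SP array lay above every MP array of its tissue. With muscle MP at the floor the size of the Ifng difference (-3.17) depends on the floor, and it was -1.85 and not called (adjusted p = 0.0529) with a floor at the 10th percentile. Gata3, a transcription factor of T cells, rose by 1.13 and 3.41, and Nr4a2, an immediate early nuclear receptor, by 1.54 and 3.14. Without the 3 arrays of high neutrophil signal Nr4a2 rose by 2.24 in muscle, and its difference of -1.60 became -0.90 and was not called (adjusted p = 0.142).

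Abcg2, the pump known for exporting the dye that defines the side population, was 17930, 17176, 15898, 26893 and 32692 in muscle SP and 11351, 11087, 12396, 10664 and 13685 in MP. It was 2160, 4419, 3357, 6705 and 5420 in bone marrow SP and 818, 972, 968, 888 and 945 in MP. SP lay above MP without overlap in both tissues, with changes of 0.85 ± 0.25 in muscle and 2.16 ± 0.25 in bone marrow and a difference of -1.31 ± 0.35 (adjusted p = 0.010). In muscle it was no longer called without SP 4 (adjusted p = 0.0709), SP 5 (0.0797), MP 1 (0.0536), MP 2 (0.0590) or MP 4 (0.0662). The difference was not called with median scaling, without the 3 arrays of highest GAPDH ratio or without the 3 of high neutrophil signal (-0.83, adjusted p = 0.149). Abcb1b, another drug pump, rose in bone marrow only (1.5, against -0.39 in muscle), where 3 of 5 MP arrays were at the floor. Its difference of -1.90 was -0.89 and not called (adjusted p = 0.0977) with a floor at the 40th percentile.

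Gsn, the actin-severing protein gelsolin, fell in both, by 2.16 in muscle and 4.01 in bone marrow, where 4 of 5 SP arrays were at the floor. Its difference of 1.85 was 0.62 and not called (adjusted p = 0.225) with a floor at the 40th percentile. Scd1, a fatty acid desaturase, changed by -1.57 and -3.38, and its other probe sets gave differences of 3.16 and -0.18. Pla2g7, a lipoprotein-associated phospholipase, changed by -1.48 and -3.89, and Ms4a1, the B cell protein CD20, by -0.90 and -3.15. The muscle change of Ms4a1 was not called without the 3 muscle SP arrays of high neutrophil signal (-0.89, adjusted p = 0.083). Nor was it called with the GAPDH ratio as a covariate (-0.57, adjusted p = 0.198). Of the 12 named genes that changed the same way in both tissues, 8 and 9 stayed in their class under these respective alternatives.

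Gene lists differed in how their members split. The share of a list is read against 8.75% of all genes higher in muscle and 11.3% higher in bone marrow, and list members were described without a test of the list. Of 27 stem and progenitor cell genes, 2 differed toward muscle and 11 toward bone marrow, with a median difference of -0.91 (-0.02 over all genes), and 7 were in the bone marrow only class. Mllt3, a chromatin reader of blood stem cells, rose by 3.08 in bone marrow SP and was 0.40 higher in muscle SP without a call. Cd34, a surface protein of stem and endothelial cells, rose by 1.85 against -0.36, and Kit, the stem cell factor receptor, by 1.07 against -0.49. Without the 3 muscle SP arrays of high neutrophil signal the muscle change of Kit was -1.27 and called (adjusted p = 0.0078), opposite to that of bone marrow. Meis1, a homeobox gene of stem cells, rose by 3.53, but was near the floor in muscle (105 to 177).

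Of 34 endothelial genes, 5 differed toward muscle and 8 toward bone marrow (median -0.28). Selp and Bmx were opposite and Sele was in the muscle only class. Kdr, a receptor of vascular endothelial growth factor, rose by 1.59 in bone marrow SP (412 to 1158 against 197 to 376), against -0.25 in muscle, where all arrays were between 16906 and 34747. Procr, the endothelial protein C receptor, rose by 3.37 in bone marrow and by 0.57 without a call in muscle, and its muscle change was called without muscle SP 3 (0.81, adjusted p = 0.0154). Emcn, a sialomucin of endothelium, rose by 0.80 and 2.61, its muscle call was lost without 9 of the single arrays (adjusted p 0.0538 to 0.0995), and its other probe sets gave differences of 0.41 and -0.21. Of 11 megakaryocyte and platelet genes, 1 and 2 differed in the respective directions, which were Selp, F2r and F2rl3.

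Of 47 fibroblast and matrix genes, 1 differed toward muscle and 24 toward bone marrow (median -1.21), and in muscle 23 fell and 1 rose. Of the 47, 31 were expressed in both tissues, where 14 had a called difference, 6 were in the muscle only class and Postn was opposite. Col5a1, a collagen chain, fell by 2.03 in muscle SP (2984 to 6453 against 13711 to 20779) and changed by 0.08 in bone marrow (1977 to 3043 against 1983 to 3060). The 5 fibroblast markers summed to 57603 to 104026 in muscle SP and 143555 to 201018 in muscle MP, and to 1675 to 3374 in bone marrow SP and 1875 to 2751 in bone marrow MP. The part of fibroblast content in the result was not tested.

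Of 28 B lineage genes, 19 differed toward muscle and 0 toward bone marrow (median 1.69), and 26 fell in bone marrow SP. In muscle SP 2 rose and 5 fell. Of the 19 that differed, 11 were expressed in both tissues. Ebf1, the B lineage factor, was in the opposite class (0.96 in muscle, -1.37 in bone marrow). It was brighter in muscle, at a mean log2 signal of 10.03 in SP and 9.07 in MP. In bone marrow it was at 6.80 in SP, near the floor of 6.71, and 8.17 in MP. The 4 B cell markers on the array summed to 610 to 965 in muscle SP and 828 to 1321 in muscle MP, against 1124 to 2955 and 6374 to 10454 in bone marrow, with Cd22 at the floor on all muscle SP arrays.

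Of 30 granulocyte genes, 19 differed toward muscle and 0 toward bone marrow (median 2.41), and 20 fell in bone marrow SP. None was called in muscle, and 13 were expressed in both tissues, 7 of them with a called difference. No muscle array was above the floor for Epx, the eosinophil peroxidase, or Ceacam10, so their difference is the bone marrow change alone, -3.43 and -4.71. The 5 neutrophil markers summed to 94533 to 249218 in bone marrow SP and 337822 to 393346 in bone marrow MP, and varied among the muscle SP arrays as given above.

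Of 33 monocyte and macrophage genes, 6 and 6 differed in the respective directions (median 0.16), and 17 fell in muscle and 15 in bone marrow. Mrc1, the mannose receptor, fell by 2.96 in muscle (105 to 111 against 639 to 970) but was near the floor in bone marrow. Lgals3, a galactose-binding lectin, fell by 2.01 in bone marrow and was 0.73 higher in muscle SP without a call, which became one without muscle SP 1 (1.14, adjusted p = 0.0230).

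Of 33 T and NK cell genes, 0 differed toward muscle and 12 toward bone marrow (median -0.94). In both tissues the listed genes rose in SP where called, 12 in muscle and 25 in bone marrow. Of the 12 that differed toward bone marrow, only 4 were expressed in both tissues. Cd3e, a chain of the T cell receptor complex, rose by 3.71 in bone marrow SP (787 to 2991), while no muscle array was above the floor. The 3 NK cell markers summed to 749 to 4625 in muscle SP and 314 to 355 in muscle MP, and the part of NK cell content was not tested.

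Of 36 interferon-stimulated genes, 10 differed toward muscle and 1 toward bone marrow (median 0.74). Samhd1, an antiviral nucleotide hydrolase, was opposite: 4582, 4440, 6138, 5119 and 4443 in muscle SP, 3322, 2742, 2440, 1667 and 2708 in muscle MP, 6697, 3787, 6453, 3539 and 2992 in bone marrow SP and 10998, 10267, 10847, 14709 and 10480 in MP. The groups were apart in both tissues, with changes of 0.96 and -1.35 and a difference of 2.32 ± 0.32 (adjusted p = 2.5e-05). Without the 3 arrays of high neutrophil signal its muscle change was 0.92 and no longer called (adjusted p = 0.070), while the difference was 2.28 and still called. Mx2, an antiviral GTPase, rose by 1.61 in muscle SP and changed by 0.14 in bone marrow. Its difference of 1.47 was 0.91 and not called (adjusted p = 0.102) without further normalization.

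Of 46 DNA replication genes, 0 differed toward muscle and 9 toward bone marrow (median -0.28). In muscle SP 9 fell, and in bone marrow SP 8 rose and 4 fell. Mcm5, a part of the replicative helicase, fell by 1.03 in muscle and changed by 0.38 in bone marrow, and without muscle MP 1 its muscle change was not called (adjusted p = 0.0522). Of 38 mitosis genes, 1 and 9 differed (median -0.46). Mad2l1, a spindle checkpoint protein, fell by 1.71 in muscle, while Stmn1, a microtubule regulator, rose by 1.17 in bone marrow SP. Of 30 ribosomal protein genes, 0 and 9 differed (median -0.50), 16 rose in bone marrow SP and 0 rose in muscle. Rpl22 was opposite (-1.09 and 1.46), but its other probe set gave a difference of 0.51. With median scaling the calls of Mcm5, Mad2l1, Stmn1, Rpl13a and Rps18 were lost.

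Of 29 CDK inhibitor and growth arrest genes, 5 and 3 differed (median 0.05). Rb1, the retinoblastoma protein, fell by 2.03 in bone marrow SP only, and its other probe set gave a difference of 1.40. Of 46 immediate early and stress genes, 7 and 8 differed (median -0.25). Nfkbiz, an inducible regulator of NF-kappa-B targets, was opposite (0.83 and -1.53), but in muscle it was no longer called without SP 4 (adjusted p = 0.0773), SP 5 (0.0853), MP 2 (0.0742), MP 3 (0.0658) or MP 5 (0.0575). Rgs2, a regulator of G protein signals, rose by 0.97 in muscle only (8288 to 14081 against 5371 to 6080).

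Of 23 Notch pathway genes, 1 and 3 differed (median 0.13). Numb, an inhibitor of Notch, fell by 2.37 in bone marrow SP and was 0.59 higher in muscle without a call, which became one without muscle MP 1 (0.71, adjusted p = 0.0351). Hey1, a Notch target, rose by 2.90 in bone marrow SP, where SP 5 stood at 22041 and the others at 3763 to 6003. Of 20 glycolysis genes, 3 and 3 differed (median -0.05). The glucose transporter genes Slc2a3 and Slc2a1 fell by 2.46 and 2.02 in bone marrow SP, with muscle changes of 0.51 and 0.54, the latter called without muscle SP 1 (0.91, adjusted p = 0.0374). The muscle change of Slc2a1 was also called without the 3 arrays of high neutrophil signal (1.17, adjusted p = 0.041). Of 19 ABC transporters, 1 and 3 differed (median -0.40), and of 10 MHC class II genes 0 and 1 did (median -0.05), although 4 fell in muscle and 6 in bone marrow.

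**Figure D4:**
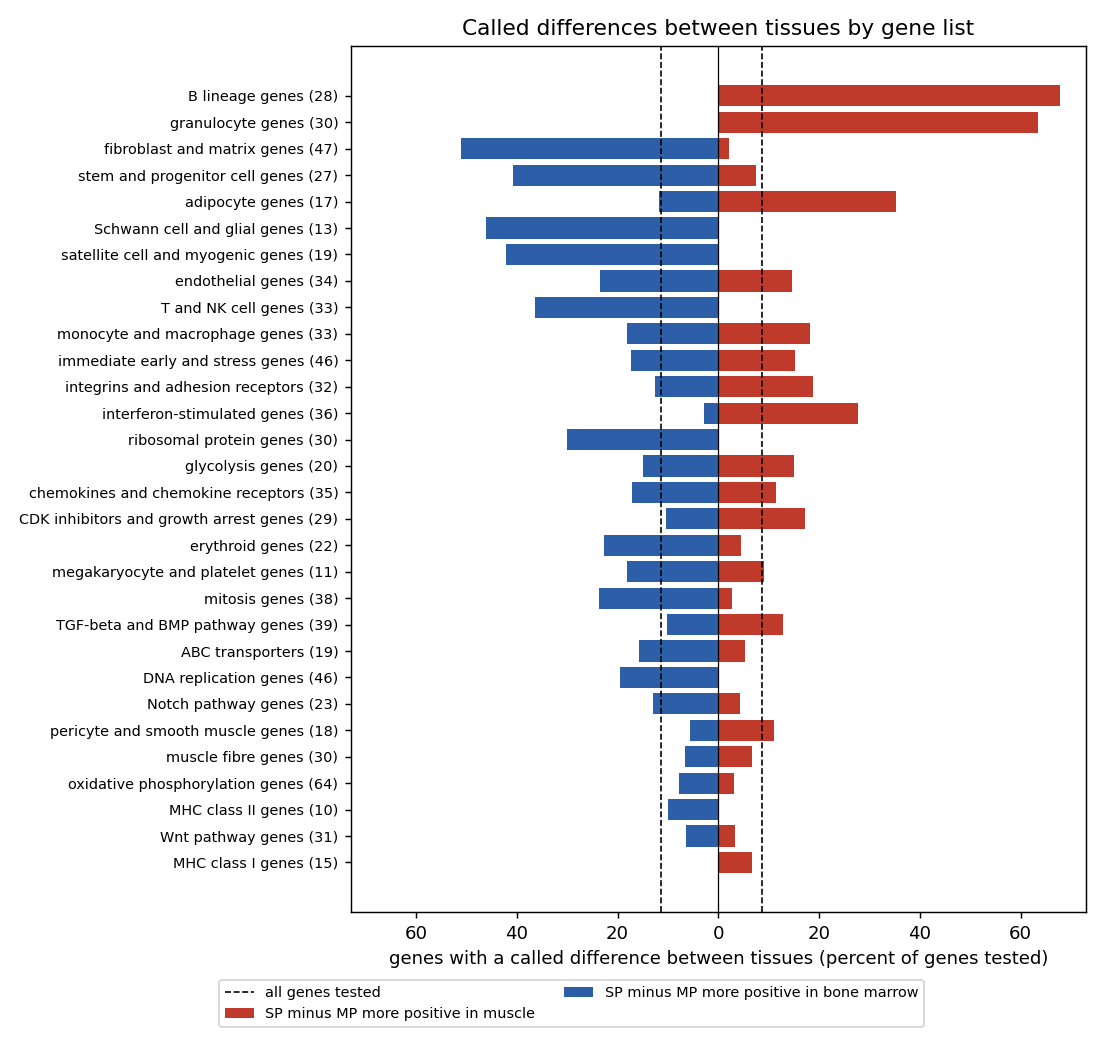
Share of the tested genes of each list (number tested in brackets) with a called difference between tissues, to the right where SP minus MP was more positive in muscle and to the left where it was more positive in bone marrow. Dashed lines mark 8.75% and 11.3%, the shares over all 7295 genes, and B lineage and granulocyte genes reach 19 of 28 and 19 of 30 on the right.

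The other 12 lists had called shares from 6.67% (1 of 15 MHC class I genes) to 47.1% (8 of 17 adipocyte genes). Of 19 satellite cell and myogenic genes 0 and 8 differed, and of 13 Schwann cell and glial genes 0 and 6. Of these 8 and 6, 3 and 4 were expressed in both tissues. Myf5, the satellite cell factor, fell by 3.39 in muscle SP (105 to 324 against 1018 to 2886) and was at the floor on all bone marrow arrays.

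Some genes of surface proteins, not stated to have been used in these sorts, showed no called difference between tissues with all arrays. Pecam1, the endothelial and blood cell adhesion protein CD31, differed by 0.22 ± 0.38 (adjusted p = 0.76), and by 0.05 without the 3 arrays of high neutrophil signal (adjusted p = 0.95). Ptprc differed by 1.53 ± 0.70 (adjusted p = 0.15), with a call when muscle SP 4 was left out (2.07, adjusted p = 0.0130). Without the 3 arrays of high neutrophil signal the Ptprc difference was -0.13 (adjusted p = 0.88). Vcam1 differed by 1.30 ± 0.59 (adjusted p = 0.14), with a call without muscle SP 3 (1.74, adjusted p = 0.0140) and without the 3 arrays of high neutrophil signal (2.36, adjusted p = 0.0019). Cxcr4, the receptor that holds blood stem cells in the marrow, differed by 0.90 ± 0.42 (adjusted p = 0.15), and by 0.41 without those 3 arrays (adjusted p = 0.57).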

How the data were processed

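Total RNA of 20 sorted cell samples had been hybridised to Affymetrix arrays, 5 per group by sample title. The deposited values are signal intensity on a linear scale, per probe set and array, scaled by the authors to a 2% trimmed mean of 1501 as the values show. How probes were summarised and background was corrected: not given in the sources used here. Of 12488 probe sets, 66 controls were left out. The platform annotation named 1 gene for 10833 of the other 12422, more than 1 for 396 and no gene for 1193.

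Array medians (318 to 612) differed by 0.943 on the log2 scale, so arrays were quantile normalized, which removes any overall difference in RNA content. Values under the 25th percentile were raised to it, which shrinks changes of dim genes, log2 was taken, and probe sets above it on at least 5 of 20 arrays were kept (10310). The number of arrays limits the precision. One limma model (limma 3.58.1, R 4.3.3) held all 4 groups, used moderated variances and was tested two-sided at 0.05 after Benjamini-Hochberg adjustment. The calculation was tested on simulated data. A gene is represented by its brightest probe set.

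The genes described, the lists and the tests were chosen with earlier results of these data known. Named were, among genes expressed in both tissues, the 8 opposite changes each way by the smaller change and the 6 largest differences each way in each other class. Up to 4 called members of each described list and a fixed set of surface protein, pump and other genes were named too. Ebf1 lies outside this rule and was chosen after its values were seen. Deviations from the group means correlated above 0.1 in 14 of 30 pairs of same-numbered samples (median r 0.08, range -0.14 to 0.30). For number 1 they correlated at 0.19 to 0.30 in every pair of groups. The labels give the numbers no meaning, so they were not taken as pairs, and a replicate block was run as an alternative. The probe set type of Ahcy, Cd22, Cd44, Ceacam10, Meis1, Olr1 and Pold2 is one that may also detect related transcripts. Promoters are from RefSeq (GRCm38.p6). Alternatives covered normalization, floor, filter, a pseudocount of 100, empirical Bayes options, array weights, a replicate block, the GAPDH ratio and each array left out. Plots used matplotlib 3.10.9 (Python 3.11.15).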

Additional observations from a re-analysis of the deposited data

Results flagged for a closer look

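Of 114 named genes, 110 had a called difference between tissues in the SP minus MP change (limma, adjusted p under 0.05 over all probe sets). Most were named because this difference was called, so the count follows from the choice. Over all 7295 genes the share was 20.1%. The value after each gene is its difference between tissues, muscle less bone marrow, in log2 signal. Among genes higher in muscle SP and lower in bone marrow SP the difference was Lrg1 (5.30), Selp (4.92), Bmx (4.45), Hdc (4.39), Slfn4 (4.34), Entpd1 (3.97), Olr1 (3.74), Nfil3 (2.65), Lifr (2.63), Nfkbiz (2.36), Samhd1 (2.32). Among genes with the reverse opposite change it was F2rl3 (-4.26), F2r (-4.26), Itm2a (-4.24), Postn (-3.25), Ahcy (-3.14), Peg3 (-2.95), Pold2 (-2.94), Nfix (-2.55), Rpl22 (-2.55). Among genes higher in SP in muscle only it was Ankrd33b (2.25), Gjb2 (2.12), Il7r (1.93), Diaph2 (1.90), Sele (1.76), Gm11346 (1.73), Mx2 (1.47), Rgs2 (1.11). Among genes lower in SP in muscle only it was Gpm6b (-2.84), Ptprd (-2.75), Clcn5 (-2.72), Gal (-2.38), Lum (-2.37), Cd83 (-2.36), Col5a1 (-2.12), Mad2l1 (-1.59), Mcm5 (-1.41), H2-DMa (-1.20), Pole3 (-0.85). Among genes higher in SP in bone marrow only it was Thy1 (-5.65), Slc1a4 (-4.65), Cdkn1c (-4.15), Slc12a2 (-4.11), Ctla2b (-3.66), Nckap1 (-3.48), Hey1 (-2.98), Mllt3 (-2.68), Cd34 (-2.20), Orc2 (-1.94), Abcb1b (-1.90). In the same class it was also Kdr (-1.84), Rpsa (-1.84), Mfng (-1.69), Hsph1 (-1.68), Rpl13a (-1.62), Kit (-1.57), Ttk (-1.57), Pfkm (-1.47), Stmn1 (-1.20), Hes1 (-1.03), Rps18 (-0.90). Among genes lower in SP in bone marrow only it was Cybb (3.51), Acta2 (3.32), Clec4d (3.06), Ifitm6 (3.00), Itgb2l (2.95), Mgst1 (2.86), Lmnb1 (1.85), Rb1 (1.74), Trim30a (1.26). Among genes that rose in SP of both tissues it was Ifng (-3.17), Gata3 (-2.29), Emcn (-1.81), Nr4a2 (-1.60), Nr4a1 (-1.38), Nrip1 (-1.36), Abcg2 (-1.31). Among genes that fell in SP of both tissues it was Pla2g7 (2.41), Mfsd14b (2.32), Ms4a1 (2.25), Pou2af1 (1.96), Gsn (1.85), Scd1 (1.82). Among genes expressed in both tissues outside these classes it was Slc2a3 (2.97), Numb (2.96), Procr (-2.80), Lgals3 (2.73), Slc2a1 (2.56), Klf2 (2.29), Eno2 (-2.27), Usp18 (2.22), Abcd3 (-0.85). Among genes not expressed in both tissues it was Ceacam10 (4.71), Bst1 (4.11), Fcrla (3.95), Cd3e (-3.71), Kera (-3.67), Meis1 (-3.67), Epx (3.43), Myf5 (-3.39), Ly6d (3.18), Cd22 (3.12), Mrc1 (-3.06). In the same class it was also C1qa (-2.59), Xcl1 (-2.56), Gas1 (-2.50), Padi4 (2.41), Itgam (2.28), Abcd2 (1.76), Cd44 (1.57). Without the 3 muscle SP arrays of high neutrophil signal the difference was not called and was 1.63 for Usp18 (adjusted p = 0.055), 1.45 for Lmnb1 (adjusted p = 0.051), -0.98 for Pfkm (adjusted p = 0.056), -0.69 for Hes1 (adjusted p = 0.2) and -0.51 for Abcd3 (adjusted p = 0.23). For Gm11346, at the floor in muscle MP, it was 0.47 and not called with a floor at the 40th percentile (adjusted p = 0.351).

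A single array stood apart from the other 4 of its group, by Dixon's gap test, in 23 of 400 groups of named genes tested, and chance flags about 1 in 20 groups. In bone marrow MP, Entpd1 was 1603 on array 2 against 1052 to 1170, Slc12a2 was 503 on array 4 against 740 to 808, Pla2g7 was 3787 on array 4 against 2099 to 2423. There, Gsn was 933 on array 5 against 1845 to 2290, Procr was 394 on array 4 against 549 to 594, Fcrla was 3989 on array 5 against 2561 to 2711. There, Mad2l1 was 6974 on array 2 against 4097 to 4763, Samhd1 was 14709 on array 4 against 10267 to 10998, Eno2 was 379 on array 5 against 178 to 197. There, Ptprc was 15102 on array 2 against 21367 to 23958. In muscle SP, Postn was 2831 on array 5 against 4426 to 4961, Gm11346 was 414 on array 3 against 237 to 277, Clcn5 was 1183 on array 1 against 504 to 632. There, Ctla2b was 9450 on array 3 against 5142 to 5990, Gata3 was 1021 on array 3 against 592 to 672, Pou2af1 was 255 on array 2 against 129 to 152. There, Lgals3 was 105 on array 1 against 358 to 542, Eno2 was 142 on array 5 against 231 to 278. In muscle MP, Ptprd was 2254 on array 1 against 3790 to 3949, Ctla2b was 6371 on array 3 against 3772 to 4271, Nr4a2 was 1149 on array 5 against 733 to 802. In bone marrow SP, Kdr was 412 on array 1 against 898 to 1158, Hey1 was 22041 on array 5 against 3763 to 6003.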

How the results depend on the processing

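The count of probe sets with a called difference between tissues stayed within 1.5 times of 896 higher and 1016 lower in muscle under all alternatives run. Those higher ran from 636 (a filter on the mean) to 1234 (median scaling), and those lower from 750 (median scaling) to 1497 (no further normalization). Class counts moved more. Without further normalization the opposite class higher in bone marrow SP held 94 (59) and the bone marrow only rises 759 (470), and with median scaling the bone marrow only rises and falls were 265 and 645 (470 and 381). Array weights gave 83 opposite changes higher in muscle SP (52) and 115 muscle only rises (66). The GAPDH covariate gave 32 and 35 opposite changes (52 and 59), of which 25 and 27 were in the same class without the covariate. A limit of 0.3 on the other tissue gave 43 and 73 muscle only rises and falls (66 and 111). No difference of a named gene changed sign where it was called in the main fit or in the alternative. The uncalled differences of Ptprc (1.53) and Pecam1 (0.22) reached -0.13 and -0.06 at their lowest. The cause of these moves was not tested.

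Leaving out each array in turn gave 779 to 966 higher and 872 to 1100 lower. Opposite changes were 34 (without muscle MP 3) to 66 higher in muscle SP and 44 to 70 higher in bone marrow SP. Changes in muscle only were 41 (without muscle MP 2; 43 without muscle MP 3) to 82 higher and 83 to 113 lower. Those in bone marrow only were 395 to 532 and 326 to 432. A replicate block gave 975 higher and 1120 lower, 61 and 77 opposite changes, and no lost call among named genes, and own numbers matched best in 10 of 30 pairs. The 3 muscle SP arrays of high neutrophil signal were chosen after seeing the data. Without them 10 of 114 named genes lost their call, and opposite changes numbered 65 and 59. Of these, 33 and 36 were in the same class with all arrays. Without the 3 arrays of highest GAPDH ratio, also chosen then, opposite changes numbered 66 and 68, with 35 and 47 in the same class with all arrays. Signal near the floor limits the changes of dim genes, and 6841 of 10310 probe sets lay above it on all 20 arrays.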
